A study of Homo sapiens with 2 samples.

Results

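Short-chain dehydrogenases and retinol dehydrogenases were compared between 2 cultures of A375, an established human melanoma cell line, measured on 1 single-colour array each. The genes were taken by symbol: every array row whose symbol in the platform annotation began with DHRS and a digit or X, HSD17B and a digit, HSD11B, SDR and a digit, or RDH and a digit. This gave 38 genes on 43 rows, out of 16583 named genes on 18188 named rows. The shBMI-1 culture carried a lentivirus that expressed a hairpin RNA to silence BMI1, the gene of a Polycomb repressive complex subunit, and the vector culture carried an empty lentivirus. The labels do not say whether either culture was a clone or a pool. Each group had 1 array, so no value has a replicate error and no test between the cultures was possible.

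Short-chain dehydrogenases are small enzymes that move hydrogen between a nicotinamide cofactor and an alcohol or carbonyl group of a substrate. The retinol dehydrogenases among them set the balance of retinol and retinal, the step before retinoic acid is made, and the hydroxysteroid dehydrogenases switch steroid hormones between strong and weak forms. Several proteins named as hydroxysteroid dehydrogenases act mainly on fatty acids or sterol precursors.

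The 2 genes that differed by 2-fold or more were DHRS2, higher in shBMI-1 cells, and RDH16, lower in them. Their upstream sequences are shown because they carry the largest differences, with that of DHRS4, a close relative of DHRS2 and the next protein-coding gene after it on chromosome 14. Each is the 250 bases before the RefSeq gene start in GRCh38.p14, read 5′ to 3′ on the strand of the gene. DHRS2 is chr14:23629865-23630114 on the plus strand, DHRS4 is chr14:23953520-23953769 on the plus strand and RDH16 is chr12:56957609-56957858 on the minus strand. Capitals mark matches to the motifs searched on both strands.
DHRS2: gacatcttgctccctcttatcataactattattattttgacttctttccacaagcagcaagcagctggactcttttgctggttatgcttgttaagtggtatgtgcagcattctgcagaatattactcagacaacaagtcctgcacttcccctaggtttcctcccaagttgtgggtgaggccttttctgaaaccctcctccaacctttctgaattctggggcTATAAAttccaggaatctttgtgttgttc
DHRS4: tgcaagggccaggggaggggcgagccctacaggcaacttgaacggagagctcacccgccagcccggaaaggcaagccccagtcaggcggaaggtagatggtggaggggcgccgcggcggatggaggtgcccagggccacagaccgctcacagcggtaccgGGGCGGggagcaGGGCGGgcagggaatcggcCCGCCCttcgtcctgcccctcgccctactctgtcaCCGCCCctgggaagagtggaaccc
RDH16: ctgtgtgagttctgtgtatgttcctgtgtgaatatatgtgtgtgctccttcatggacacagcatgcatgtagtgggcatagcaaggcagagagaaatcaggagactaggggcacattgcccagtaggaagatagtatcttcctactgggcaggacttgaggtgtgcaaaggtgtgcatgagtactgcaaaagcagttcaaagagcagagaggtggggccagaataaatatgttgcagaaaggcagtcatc
The motifs were the TATA box TATAAA, the CCAAT box CCAAT, the GC box GGGCGG, the E-box CACGTG, the cyclic AMP response element half-site TGACG and the nuclear receptor half-site AGGTCA. In DHRS2 the capitals are a TATA box from 29 to 24 bases before the start, and in DHRS4 they are 4 GC boxes within 90 bases of it, which overlap no other motif. No letters of the RDH16 window matched. A TATA box was held by 11.1% and a GC box by 42.3% of the 27305 upstream windows of the RefSeq table. The DHRS2 and RDH16 windows hold 0 CG dinucleotides each, against 19 in the DHRS4 window. Of the 38 genes 27 had a window, with a median of 16 CG dinucleotides, and only DHRS2 and RDH16 had none. HSD17B3 and HSD17B13 held 1 each, RDH5 and SDR9C7 held 2 each, HSD11B1 held 3 and RDH8 held 5. None of these genes reached 2-fold, though HSD17B13, SDR9C7 and HSD11B1 had dim signals. The windows of HSD17B3 and SDR9C7 also held a TATA box. Over all windows the median was 11, and 6.39% had none.

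Both arrays had a similar range, with a median intensity of 129.8 for shBMI-1 and 131.2 for the vector, and ratios below are shBMI-1 minus vector on the log2 scale. BMI1, the targeted gene, had an intensity of 25.8 in shBMI-1 cells and 68.6 in vector cells, a ratio of -1.41, both under the array medians. Of 13 genes of the melanocyte lineage and of melanoma, 7 passed the brightness limit, meaning that 1 array or both reached the median of its rows. SOX10, a neural crest transcription factor, had intensities of 6889 in shBMI-1 cells and 7608 in vector cells. MITF, TYR, MLANA and PMEL were under the limit, so these defining genes of pigment cells were dim in both cultures. Markers of tissues rich in these enzymes were mostly dim: 2 of 9 steroid gland genes, 2 of 9 hepatocyte genes and 2 of 7 retinal genes passed. The summed intensity of the steroid gland markers was 555.4 in shBMI-1 cells and 885.5 in vector cells, and that of the hepatocyte markers was 559.4 in shBMI-1 cells and 784.8 in vector cells. Among these, the albumin gene ALB was at 11.1 in shBMI-1 cells and 17.1 in vector cells, and STAR, which brings cholesterol into steroid-making mitochondria, was at 13.1 in shBMI-1 cells and 25.4 in vector cells. The steroid gland genes that passed were CYP11A1 (223.3 in shBMI-1 cells and 341.4 in vector cells) and INSL3 (75.6 and 162.1). The hepatocyte genes that passed were TTR (108.6 and 252.1) and SERPINA1 (199.2 and 183.3). INSL3 and TTR passed through the vector array alone, so they had to be lower in shBMI-1 cells. CYP17A1, MC2R, APOA1 and SERPINA1 went the other way from the sums. Of the other lists, 3 of 7 keratinocyte genes, 3 of 7 white blood cell genes and 0 of 8 fibroblast genes passed. The summed intensity of the keratinocyte markers was 2300 in shBMI-1 cells and 1608 in vector cells, that of the white blood cell markers was 3767 in shBMI-1 cells and 2666 in vector cells, and that of the fibroblast markers was 320.6 in shBMI-1 cells and 417.3 in vector cells. Most of the white blood cell sum came from CD68 (2562 in shBMI-1 cells and 1607 in vector cells) and CORO1A (1053 and 789.9). LAPTM5, the third of that list to pass, went the other way (19.3 in shBMI-1 cells and 151.9 in vector cells). It passed through the vector array alone, so it had to be lower in shBMI-1 cells and nothing is read from its direction.

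Of the 38 genes, 27 passed the brightness limit and 11 did not. All but DHRS2 passed on both arrays, and DHRS2 passed through the shBMI-1 array alone. Past the 2-fold threshold lay 1 higher and 1 lower gene of the 27, together 7.41%, beside 6.78% of all 8921 named genes above the limit (3.23% higher and 3.55% lower). That share is near the background. Ratios of the 27 had a median of 0.11 and an interquartile range of 0.04 to 0.30, beside a median of 0.09 and an interquartile range of -0.17 to 0.32 for all genes. Differences under 1.2-fold were found for 18 of the 27 (66.7%), beside 51.2% of all genes. Averaged over both arrays, their median intensity was 517.6, beside 508.9 for all genes above the limit. A ratio above 0 was found for 23 of the 27 (85.2%), beside 60.0% of all genes, a split that was 70.4% beside 53.6% after quantile normalization and 66.7% beside 52.4% after loess normalization. The arrays allowed 1 measure of error, the row SD, which is the pooled SD of the ratios of different rows of one gene at a like level, and 8 of the 27 ratios were larger than it (29.6%, beside 36.1% of all genes). Since the rows of a gene may read different transcripts, this spread is not error alone.

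**Figure D1:**
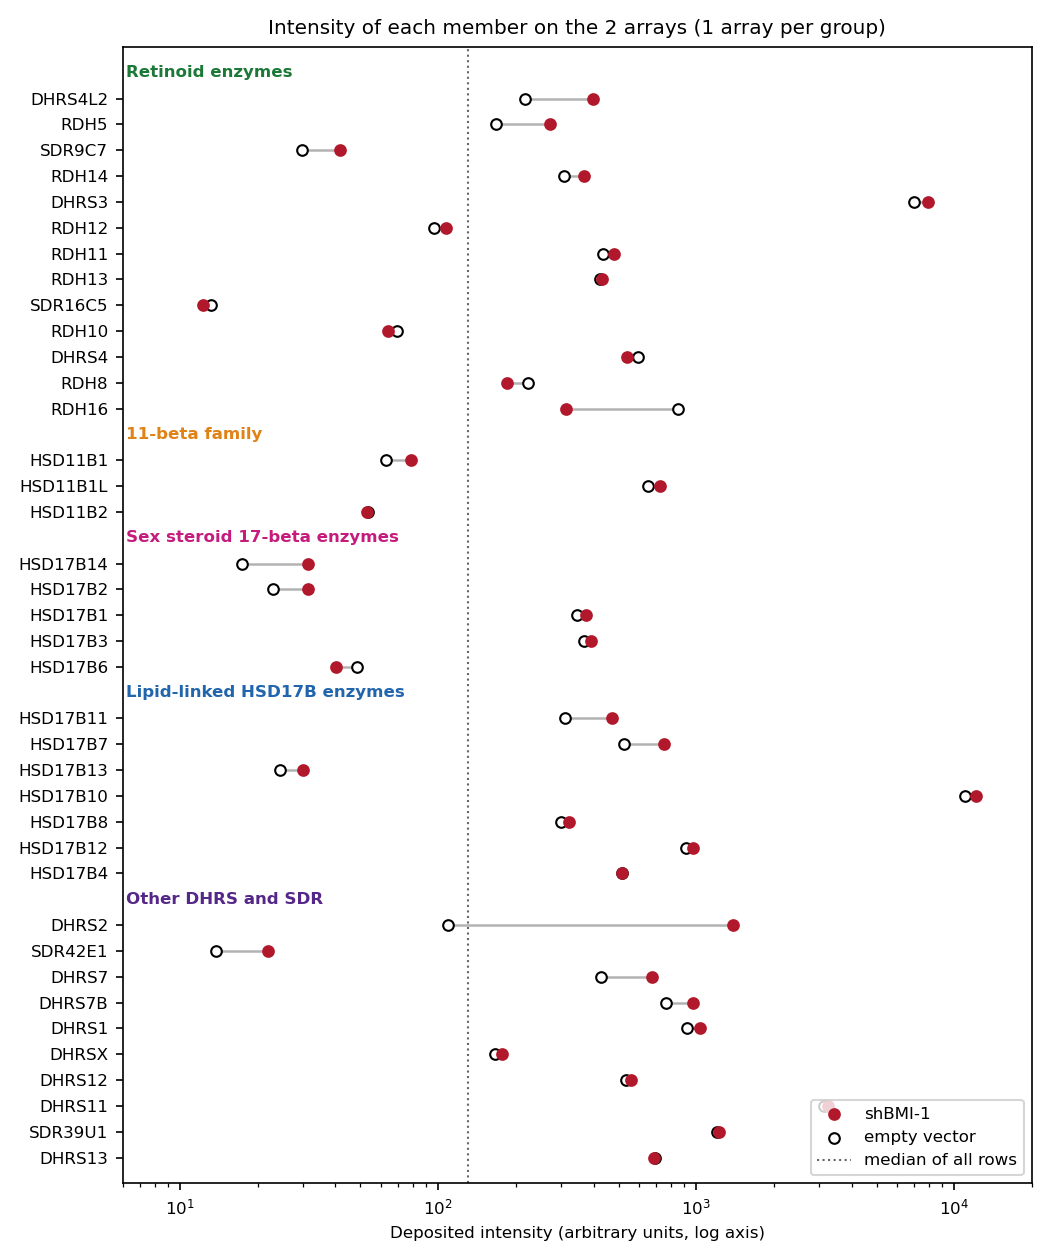
Deposited intensity of each gene (horizontal log axis, arbitrary units) on the shBMI-1 array (filled) and the vector array (open), grouped by role, with a dotted line at the median of all rows. DHRS2 and RDH16 have the widest gaps, in opposite directions, and 11 genes lie left of the line on both arrays.

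DHRS2, also known as HEP27, is a dicarbonyl reductase that was first found in growth-arrested liver tumour cells and has been described to bind the p53 regulator MDM2. Its intensity was 1385 in shBMI-1 cells and 109.2 in vector cells, at the 85.7th percentile of the shBMI-1 array and the 46.4th of the vector array. The ratio was 3.66, a 12.7-fold difference, and only 1 of the 8921 genes had a larger positive ratio. It was 8.73 times the row SD of 0.42 at the mean level of the 2 arrays. At the level of the vector value alone the row SD was larger, 0.76. The value rests on 1 row, and the vector value lay under its array median, so the size of the fold depends on a dim value: with a pseudocount of 50 the ratio was 3.17. DHRS4, a peroxisomal carbonyl reductase that also reduces retinal, had an intensity of 538.6 in shBMI-1 cells and 595.1 in vector cells (ratio -0.14, row SD 0.30). DHRS4L2, a near copy of DHRS4 beside it, had 400.0 in shBMI-1 cells and 217.8 in vector cells. Its ratio of 0.88, 1.84-fold, was 2.09 times the row SD and the nearest to the 2-fold threshold from below. The sequences of DHRS4 and DHRS4L2 are so alike that their rows may share signal, so their separate values are uncertain. DHRS2, DHRS4 and DHRS4L2 are consecutive protein-coding genes, and they had 1 large ratio, 1 near 0 and 1 between.

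The 5 measured genes on each side of DHRS2 were listed to see whether its surroundings differed too. Of these 10, 6 passed the brightness limit, with ratios from -0.22 for CARMIL3 to 0.88 for DHRS4L2. None of the 6 reached 2-fold, beside 6.78% of all genes, and over so few genes that is near the share. DHRS1 and SDR39U1 lie farther along chromosome 14. DHRS1, a broad reductase of the endoplasmic reticulum, had 1036 in shBMI-1 cells and 919.8 in vector cells (0.17). SDR39U1, a relative of unsettled substrate, had 1221 in shBMI-1 cells and 1204 in vector cells, with a ratio of 0.02 that was -0.06 after quantile or loess normalization. No measured gene around DHRS2 had a ratio as large as its own, though those under the limit were too dim to read.

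RDH16 is a microsomal enzyme that oxidises all-trans retinol as well as some androgens, and it is known mainly from liver. Its intensity was 312.5 in shBMI-1 cells and 850.4 in vector cells, both above their array medians, at the 65.8th percentile of the shBMI-1 array and the 80.8th of the vector array. The ratio was -1.44, 2.72-fold lower and 4.86 times the row SD of 0.30, and it was the 158th lowest of the 8921 genes. RDH16 was measured by 1 row. On chromosome 12 it follows HSD17B6 and SDR9C7, and these 3 have no other protein-coding gene between them. HSD17B6, an epimerase and oxidase of androgens close to the retinol dehydrogenases in sequence, had 40.1 in shBMI-1 cells and 48.3 in vector cells. SDR9C7, an enzyme of the skin barrier lipids, had 41.8 in shBMI-1 cells and 29.8 in vector cells. Both were under the brightness limit, where the row SD is 0.80, and their ratios of -0.27 and 0.49 lay within it. Of the 5 measured genes on each side of RDH16, 5 passed the limit, with ratios from -0.21 for PTGES3 to 0.88 for NEMP1. NEMP1 passed through the shBMI-1 array alone, so it had to be higher there, and the next ratio was 0.42 for PRIM1. None of the 5 that passed reached 2-fold, beside 6.78% of all genes, and over so few genes that is near the share.

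**Figure D2:**
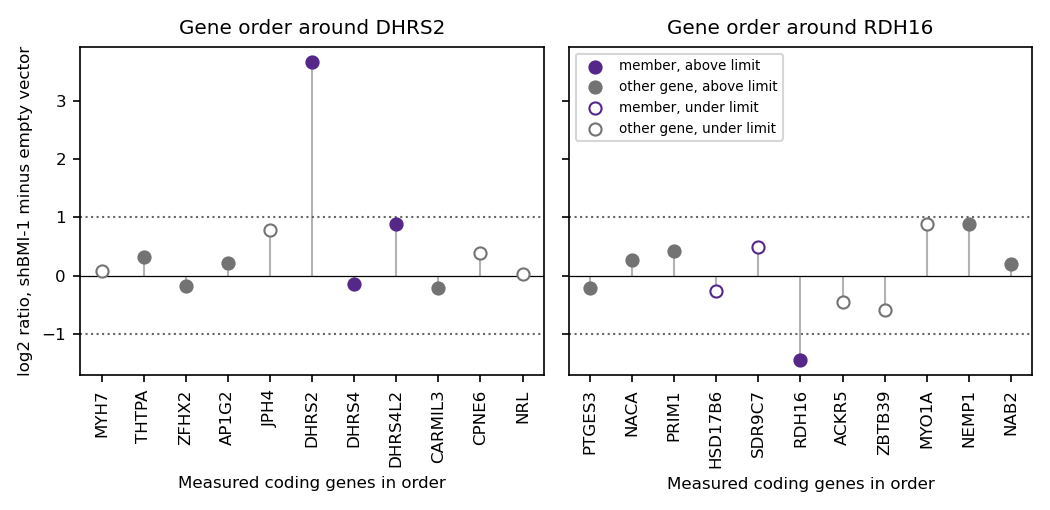
Ratio (log2, shBMI-1 minus vector) of DHRS2, left, and RDH16, right, and of the 5 measured protein-coding genes on each side in chromosome order. Filled points passed the brightness limit, purple points belong to the family and dotted lines mark 2-fold. DHRS2 at 3.66 and RDH16 at -1.44 are the only points past those lines.

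Other enzymes that oxidise retinol had small or dim signals. RDH5, which makes 11-cis retinal in the pigment epithelium of the eye, had 271.3 in shBMI-1 cells and 167.3 in vector cells, a ratio of 0.70 (1.62-fold) that was 1.17 times the row SD of 0.60. RDH10, the main retinol dehydrogenase of the mouse embryo, had 63.9 in shBMI-1 cells and 69.6 in vector cells, under the limit on both arrays. SDR16C5, an epidermal retinol dehydrogenase, was at 12.3 in shBMI-1 cells and 13.2 in vector cells. Neither of these dim pairs differed by more than the row SD.

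Enzymes that mainly return retinal to retinol formed the next group. DHRS3, which lowers retinal and is induced by retinoic acid in many cells, had 7926 in shBMI-1 cells and 6982 in vector cells, a ratio of 0.18 that was within the row SD of 0.20. RDH11, a broad reductase of retinal and lipid aldehydes, had 479.1 in shBMI-1 cells and 435.2 in vector cells (0.14). RDH12, its neighbour on chromosome 14, known from photoreceptors, had 107.6 in shBMI-1 cells and 96.6 in vector cells, under the limit. RDH11 and RDH12 had nearly the same ratio, 0.14 and 0.16, both within the row SD. RDH14, another reductase of retinal, had 367.7 in shBMI-1 cells and 307.1 in vector cells (0.26). RDH13, a mitochondrial enzyme, had 431.1 in shBMI-1 cells and 423.7 in vector cells, with a ratio of 0.03 that was -0.04 after quantile or loess normalization. RDH8, the photoreceptor enzyme that clears all-trans retinal, had 184.2 in shBMI-1 cells and 222.6 in vector cells (-0.27, row SD 0.60). Of the 9 retinoid enzymes above the limit, including DHRS4 and DHRS4L2, 6 had a ratio above 0 and 3 below, beside 60.0% of all genes above 0, and RDH16 alone reached 2-fold, beside 6.78% of all genes. All 9 passed on both arrays, and of all genes that did so 2.24% were past 2-fold.

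The glucocorticoid enzymes gave little signal. HSD11B1, which regenerates cortisol from cortisone, averaged 78.4 in shBMI-1 cells and 62.9 in vector cells over 2 rows whose ratios were 0.79 and -0.15. HSD11B2, which inactivates cortisol, had 52.8 in shBMI-1 cells and 53.6 in vector cells. Both genes were under the limit on both arrays, and the rows of HSD11B1 disagreed in direction. HSD11B1L, a related gene of less certain substrate, averaged 721.7 in shBMI-1 cells and 648.1 in vector cells, and its 3 rows had ratios of 0.08, 0.18 and 0.20. Those 3 rows name transcripts of one gene and may share sequence, so they are not independent.

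Among the HSD17B enzymes that act on sex steroids, 2 of 5 passed the limit. HSD17B1, which reduces estrone to estradiol, had 373.4 in shBMI-1 cells and 344.8 in vector cells (0.11). HSD17B3, the testis enzyme that makes testosterone, had 391.7 in shBMI-1 cells and 366.4 in vector cells (0.10). Both ratios were under the row SD of 0.42. HSD17B2, which inactivates estradiol and testosterone, had 31.2 in shBMI-1 cells and 22.9 in vector cells, and HSD17B14, which oxidises estradiol, had 31.2 in shBMI-1 cells and 17.4 in vector cells. HSD17B14 had a ratio of 0.85, but both of its values were far under the array medians and the row SD there is 0.72. SDR42E1, the neighbour of HSD17B2 on chromosome 16, was as dim, at 22.0 in shBMI-1 cells and 13.7 in vector cells.

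Of the 7 HSD17B genes that work mainly in lipid metabolism, 6 passed the limit and none reached 2-fold, beside 6.78% of all genes. All 6 passed on both arrays, and of all genes that did so 2.24% were past 2-fold. HSD17B11, an enzyme of lipid droplets, had 472.0 in shBMI-1 cells and 309.5 in vector cells, a ratio of 0.61 and 1.45 times the row SD. Its neighbour HSD17B13, a lipid droplet protein of liver, had 29.9 in shBMI-1 cells and 24.3 in vector cells, under the limit. HSD17B7, which reduces a keto group in cholesterol synthesis, had 749.8 in shBMI-1 cells and 523.1 in vector cells, a ratio of 0.52 and 1.75 times the row SD of 0.30. HSD17B11 and HSD17B7 were the 2 of the 6 with a ratio beyond the row SD, a share near the 36.1% of all genes. A pseudogene with a sequence close to HSD17B7 is annotated on chromosome 10, and its part in that signal was not tested.

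The remaining lipid enzymes were nearly equal on both arrays. HSD17B12, the reductase of very long chain fatty acid elongation, had 969.5 in shBMI-1 cells and 914.6 in vector cells (0.08). HSD17B8, a subunit of the mitochondrial fatty acid synthesis reductase, had 321.0 in shBMI-1 cells and 298.9 in vector cells (0.10). HSD17B4, the peroxisomal bifunctional enzyme of fatty acid oxidation, had 518.1 in shBMI-1 cells and 517.2 in vector cells, a ratio of 0.002 that was -0.05 after quantile and -0.07 after loess normalization. HSD17B10, a mitochondrial enzyme that is also a subunit of mitochondrial ribonuclease P, had rows on opposite sides of 0. One row had 13123 in shBMI-1 cells and 10195 in vector cells (0.36), and the other had 11304 in shBMI-1 cells and 11886 in vector cells (-0.07). Their mean ratio was 0.15, within the row SD of 0.20, and the brighter row gives -0.07 alone.

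**Figure D3:**
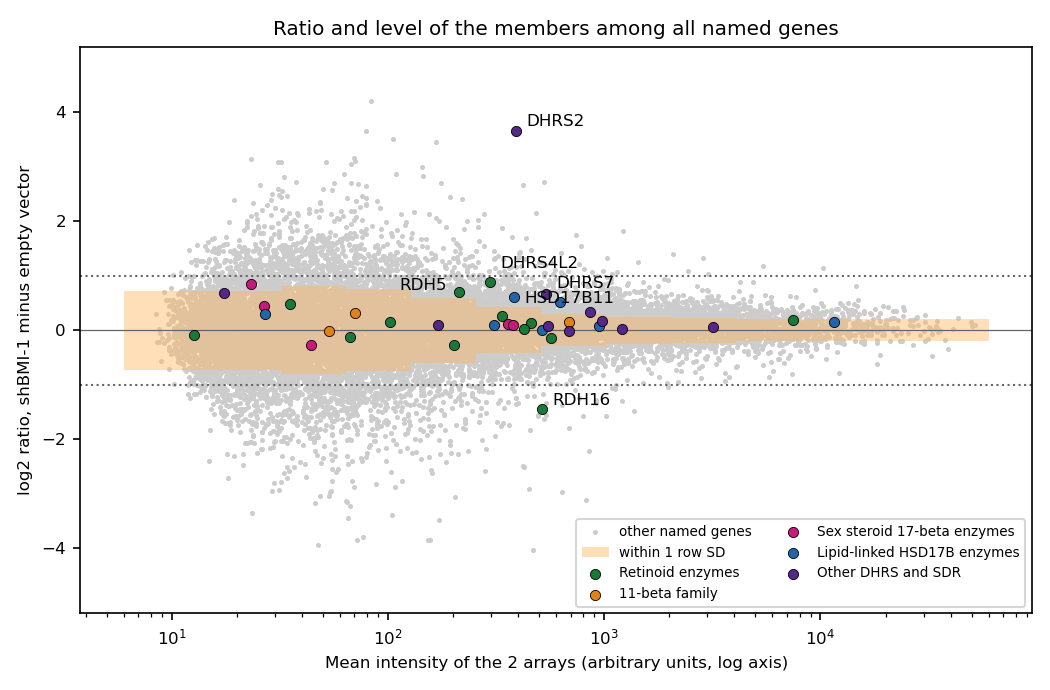
Ratio (log2, shBMI-1 minus vector) against the mean intensity of the 2 arrays (log axis) for all named genes in grey and the 38 genes in colour by role. The orange band is 1 row SD either side of 0 and dotted lines mark 2-fold. DHRS2 and RDH16 lie beyond the dotted lines. DHRS4L2, RDH5, DHRS7, HSD17B11, HSD17B7, DHRS7B and the dim HSD17B14 lie between the band and the upper line, and the others lie within the band.

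Among the other DHRS genes, DHRS7 and DHRS7B stood beyond the row SD. DHRS7, a microsomal reductase of steroids and retinal, had 675.6 in shBMI-1 cells and 428.6 in vector cells, a ratio of 0.66 (1.58-fold) and 2.21 times the row SD of 0.30. DHRS7B, a peroxisomal enzyme of ether lipid synthesis, had 972.0 in shBMI-1 cells and 766.6 in vector cells (0.34, 1.15 times the row SD). The rest differed less. DHRS11, a cytosolic ketosteroid reductase, had 3235 in shBMI-1 cells and 3118 in vector cells, with a ratio of 0.05 that was -0.02 after quantile or loess normalization. DHRS13 had 684.4 in shBMI-1 cells and 690.5 in vector cells, a ratio of -0.01 that was 0.003 after median centring. DHRSX, an enzyme of dolichol synthesis, had 176.2 in shBMI-1 cells and 165.9 in vector cells (0.09). DHRS12 averaged 560.8 in shBMI-1 cells and 533.8 in vector cells over 2 rows of opposite direction, 0.30 and -0.16, and its mean ratio of 0.07 was -0.001 after loess normalization.

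With 1.5-fold as the threshold, 5 of the 27 were higher and 1 was lower, 22.2% together, beside 18.6% of all genes (10.1% higher and 8.45% lower). The higher genes were DHRS2, DHRS4L2, RDH5, DHRS7 and HSD17B11, and the lower one was RDH16. Of these, HSD17B11 was short of 1.5-fold after quantile normalization, HSD17B11 and DHRS7 after loess normalization, and HSD17B11 and RDH5 with a pseudocount of 50. DHRS2, DHRS4L2 and RDH16 were past 1.5-fold under each of these settings.

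Genes of the pathways around these enzymes were then described. In the retinoid list of binding proteins, storage and cleavage enzymes, receptors and breakdown enzymes, 18 of 37 measured genes passed the limit, 0 were 2-fold higher and 2 were 2-fold lower (11.1%, beside 6.78% of all genes). The 2 were AKR1B10, a retinal reductase, with 76.4 in shBMI-1 cells and 189.5 in vector cells (-1.31), and TTR, the plasma carrier of the retinol-binding protein, with 108.6 in shBMI-1 cells and 252.1 in vector cells (-1.22). Both passed the limit through the vector array alone, so they had to be lower in shBMI-1 cells and nothing is read from that share. TTR is also among the hepatocyte markers above. RXRG, a retinoid X receptor, had 1286 in shBMI-1 cells and 722.9 in vector cells (0.83, row SD 0.30), and RETSAT, which saturates retinol, had 1041 in shBMI-1 cells and 746.4 in vector cells (0.48). The list median was 0.14, beside 0.09 for all genes, and its mean was -0.02.

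In the steroid list of synthesis, inactivation and receptor genes, 16 of 39 measured genes passed, 1 was 2-fold higher and 1 lower (12.5%, beside 6.78% of all genes). Those 2, CYP11B2 and ESR1, passed through the array where they were high, as did CYP3A4, so they had to differ and nothing is read from that share. At 1.5-fold, 3 were higher and 8 lower (68.8%, beside 18.6% of all genes). CYP11B2, ESR1 and CYP3A4 are counted there too, as are the 4 AKR1C genes described below, so nothing is read from that share either. The list median was -0.43, beside 0.09 for all genes. ESR1, the estrogen receptor alpha gene, had 74.97 in shBMI-1 cells and 265.1 in vector cells (-1.82, row SD 0.60). AKR1C3, a reductase that makes testosterone, had 244.8 in shBMI-1 cells and 454.2 in vector cells (-0.89). AKR1C1, AKR1C2 and AKR1C4 had ratios of -0.79, -0.74 and -0.78, but these genes are so alike in sequence that their rows may share signal. Without the 4 AKR1C genes, a choice made after seeing the values, the median of the other 12 was -0.09. The gene for aldosterone synthase, CYP11B2, had 147.9 in shBMI-1 cells and 51.3 in vector cells (1.53), while its near copy CYP11B1, under the limit, had 38.4 in shBMI-1 cells and 127.2 in vector cells (-1.73). CYP3A4, a steroid hydroxylase, had 144.5 in shBMI-1 cells and 83.5 in vector cells (0.79). The steroid gland markers, whose summed intensity is given above, share 5 genes with this list. Of the shared genes only CYP11A1, with a ratio of -0.61, passed the limit and entered the list's median.

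Other genes of the short-chain dehydrogenase superfamily, whose symbols lie outside the rule, had no 2-fold difference among the 25 of 30 that passed, beside 6.78% of all genes, and their median was 0.18, beside 0.09. CBR3, a carbonyl reductase, had 166.9 in shBMI-1 cells and 85.0 in vector cells (0.97, row SD 0.76) and passed through the shBMI-1 array alone, and DCXR, which reduces xylulose and dicarbonyls, had 772.2 in shBMI-1 cells and 477.3 in vector cells (0.69, row SD 0.30). FASN, the fatty acid synthase, had 5823 in shBMI-1 cells and 7067 in vector cells (-0.28), and TECR, of fatty acid elongation, had 22069 in shBMI-1 cells and 25460 in vector cells (-0.21). Both ratios were beyond the row SD of 0.20, at 1.40 times it for FASN and 1.04 times for TECR.

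**Figure D4:**
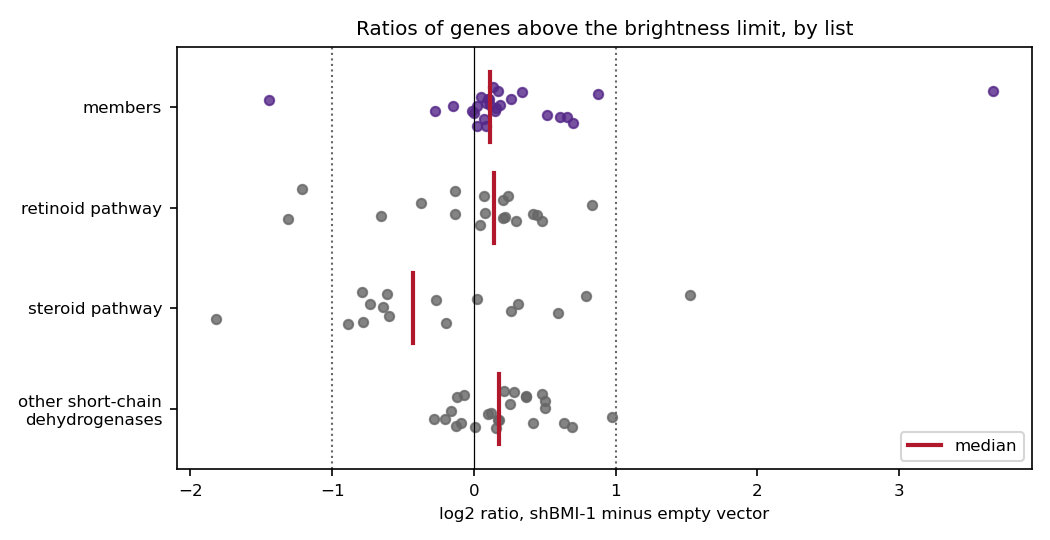
Ratio (log2, shBMI-1 minus vector) of each gene above the brightness limit in the family and in 3 related lists, with red bars at the medians of 0.11, 0.14, -0.43 and 0.18 from top to bottom. The points are spread vertically at random for sight only, and DHRS2, at 3.66, lies apart from every other point.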

How the data were processed

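Oligo-dT primed cDNA of total RNA carried Cy3 and was read by the NimbleGen single-colour method, per the labels' protocols. The authors deposited linear intensity values, all positive, for 45033 rows on each of the 2 arrays. How probes were scanned, summarised and normalized is not given in the sources used. Groups came from the sample titles, and coordinates of rows were not used here.

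Values were log2-transformed without a pseudocount, and rows that share a symbol were averaged. With 1 array per group no p-value was computed, and the number of arrays limits the precision. Detection calls were not used here, so no detection limit was set. All 38 genes are named, and other genes by a fixed rule: BMI1, the 2 largest ratios each way in each pathway list, and every listed gene past 2-fold. CYP11B1, the other AKR1C genes, neighbours and markers outside the rule were named after their values were seen. The genes and lists were chosen with earlier results of these data known. The computation of ratios was run on simulated data with known ratios, which checks the arithmetic alone and says nothing about the counts. Upstream windows are RefSeq's (GRCh38.p14). Alternatives were 3 scalings, a pseudocount of 50, the brightest row, other brightness limits and thresholds, and means. Python 3.11.15, numpy 2.4.6, pandas 2.3.3, statsmodels 0.14.6 and matplotlib 3.10.9 were used.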

Additional observations from a re-analysis of the deposited data

How the results depend on the processing

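DHRS2 and RDH16 were past 2-fold, DHRS2 higher and RDH16 lower, under median centring, quantile and loess normalization, a pseudocount of 50 and the brightest row. With a brightness limit on both arrays, 1 of 26 genes was past 2-fold, beside 2.24% of all 7769 genes. Of the 26, 0 were higher, because DHRS2 passed on 1 array only. At 1.5-fold there were 6 of 27, with 5 higher, beside 18.6% of all genes. At 3-fold there was 1 of 27, with 0 lower, beside 2.38% of all genes. The mean ratio of the family was 0.27 against a median of 0.11, and the mean of the retinoid list was -0.016, on the other side of 0 from its median. The largest ratio of the family was 3.66 for DHRS2, and the lowest of the retinoid list were -1.31 for AKR1B10 and -1.22 for TTR. Such values weigh more on a mean than on a median, and means without them were not computed. The steroid list median of -0.43 was -0.27 with the brightest rows, -0.22 with no brightness limit, -0.23 at the 75th percentile over 6 genes, -0.60 where the mean level had to reach the median and -0.60 where both arrays had to, its mean was -0.24, and without the AKR1C genes (chosen after seeing the data) it was -0.087. Quantile and loess normalization each turned the sign of 5 of the 38 ratios, all within the row SD. No paired analysis was possible because each group has 1 array. Dim values limit all folds of genes under the array median.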

Other observations

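The upstream windows of DHRS2 and RDH16 were the 2 of 27 with no CG dinucleotide, which led to a look at all genes, chosen after these values were seen. Of genes above the brightness limit, 21.7% of 83 with no CG dinucleotide in the 250 bases before the start were past 2-fold, 14.8% of 743 with 1 to 5, 7.82% of 1547 with 6 to 15 and 4.66% of 5043 with 16 or more. DHRS2 and RDH16, which prompted the look, are counted among the 83 and among those past 2-fold, so that share is not independent of them. Signal level moved with these classes: the median intensity was 205.2, 273.3, 481.2 and 607.0. Most of the genes past 2-fold in these shares passed the limit only through the array where they were high. Their numbers were 18, 110, 121 and 235, of which 4, 32, 28 and 81 passed on both arrays. Genes that passed on 1 array alone had to differ, so nothing is read from the first shares. With the limit on both arrays the shares were 8.0% of 50, 5.54% of 578, 2.08% of 1343 and 1.79% of 4518. RDH16 is counted in the 8.0% of 50, and DHRS2 is not among the 50. The part of signal level in this order was not tested.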
